A study of Mus musculus with 22 samples.

Results

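The 4 Hox gene clusters of the mouse were examined for H3K27me3 and H3K4me3 in purified cells of the developing neocortex. Members were all listed peaks that touched 4 windows of mouse build mm9 by at least 1 bp: chromosome 6 from 52.09 to 52.24 Mb (Hoxa), chromosome 11 from 96.1 to 96.25 Mb (Hoxb), chromosome 15 from 102.72 to 102.91 Mb (Hoxc) and chromosome 2 from 74.48 to 74.61 Mb (Hoxd). This rule uses position alone. It gave 40 of the 110069 peaks in the 10 lists, of which 22 were H3K27me3 peaks (of 30575) and 18 were H3K4me3 peaks (of 79494). Of the 40, 17 lay in the Hoxa window, 8 in Hoxb, 5 in Hoxc and 10 in Hoxd.

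All cells came from C57BL/6JOlaHsd mice. Neuroepithelial cells (NEC), the early dividing layer, were taken at embryonic day 9.5 (E9.5). The other cells were taken at E14.5. They were apical radial glia in a proliferative (aRG-P) and a neurogenic (aRG-N) population, their basal counterparts without apical contact (bRG), and neurons (N). NEC thus differ from the other cell types in age as well as in type, and the effects of age and type cannot be told apart. Each mark had 2 samples per cell type, and both aRG-N samples for H3K27me3 are labelled as technical replicates. The authors called 1 list on the combined samples of each cell type and mark, so the values below have no replicate spread and cell types are compared by description only. How deeply each list was sequenced is unknown. Because the lists hold no gene names, cell types are called as labelled and were not checked against marker genes.

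Hox genes encode homeodomain transcription factors that give cells their position along the head-to-tail axis. In each cluster the order of the genes on the chromosome follows the order of their expression domains along the body, a property called collinearity. The forebrain, which includes the neocortex, lies in front of the classical Hox expression domains. Hox clusters are textbook targets of Polycomb group proteins: Polycomb repressive complex 2 places H3K27me3, which marks silenced genes, while H3K4me3 marks active and poised promoters.

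In the order of the RefSeq GRCm38.p6 gene table, the Hoxa window runs from the low-numbered genes at its low-coordinate end (Hoxa2, Hoxa3, Hoxa4) to Hoxa13 at its high end, with Evx1 as the next protein-coding gene beyond. Hoxd runs the other way, from Evx2 and Hoxd13 at the low end to Hoxd1 at the high end, with Mtx2 beyond. Hoxb runs from Hoxb13 and Hoxb9 down to Hoxb1, and Hoxc from Hoxc13 down to Hoxc4. That table is of another build than the peaks, so it was used for gene order only and no peak is assigned to a gene. The clusters also hold microRNA genes, placed here by the lowest coordinate of each gene. Mir196b comes between Hoxa9 and Hoxa10, Mir196a-1 between Hoxb13 and Hoxb9, and Mir196a-2 between Hoxc10 and Hoxc9. Mir615 comes between Hoxc5 and Hoxc4, Mir10a next to Hoxb4 and Mir10b next to Hoxd4. Only lowest coordinates were ordered, so a microRNA gene may also lie inside a neighbour named here. The same order puts Hoxb3 before Hoxb4 and Hoxd3 before Hoxd4.

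The mature sequences of these microRNAs (RefSeq, GRCm38.p6) are shown because copies of the same seed sit in different clusters. Capitals mark the seed, bases 2 to 8 from the 5′ end. The miR-10 pair has 1 seed and is split between Hoxb and Hoxd, the miR-196 family has 1 seed and is split over Hoxa, Hoxb and Hoxc, and miR-615 has a seed of its own in Hoxc.
mmu-miR-10a-5p: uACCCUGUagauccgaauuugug
mmu-miR-10b-5p: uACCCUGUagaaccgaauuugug
mmu-miR-196a-5p: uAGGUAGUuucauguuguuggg
mmu-miR-196b-5p: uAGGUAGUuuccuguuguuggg
mmu-miR-615-3p: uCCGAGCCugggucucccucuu

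Promoter sequence is shown because both marks are known to gather at CpG-rich promoters. The 250 bases before the gene start are given for the lowest-numbered member of each cluster in the RefSeq promoter table, with every CG dinucleotide in capitals. Coordinates are GRCm38.p6 and cannot be set against the mm9 peak positions below.
Hoxa2 (chr6:52164832-52165081, minus strand): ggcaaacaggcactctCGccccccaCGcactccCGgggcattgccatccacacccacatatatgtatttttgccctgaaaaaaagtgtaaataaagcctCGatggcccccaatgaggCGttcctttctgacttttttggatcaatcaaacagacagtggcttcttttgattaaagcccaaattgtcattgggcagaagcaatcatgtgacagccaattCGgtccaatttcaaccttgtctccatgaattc
Hoxb1 (chr11:96365508-96365757, plus strand): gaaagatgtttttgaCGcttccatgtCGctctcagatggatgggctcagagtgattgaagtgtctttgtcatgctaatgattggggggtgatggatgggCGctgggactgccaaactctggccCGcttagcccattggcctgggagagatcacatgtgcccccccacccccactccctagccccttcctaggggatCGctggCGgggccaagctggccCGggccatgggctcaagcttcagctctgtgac
Hoxc4 (chr15:103034145-103034394, plus strand): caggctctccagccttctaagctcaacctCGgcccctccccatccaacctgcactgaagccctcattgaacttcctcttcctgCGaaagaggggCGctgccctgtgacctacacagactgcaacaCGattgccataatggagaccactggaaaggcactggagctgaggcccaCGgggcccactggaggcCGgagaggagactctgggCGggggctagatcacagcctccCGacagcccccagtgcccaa
Hoxd1 (chr2:74762730-74762979, plus strand): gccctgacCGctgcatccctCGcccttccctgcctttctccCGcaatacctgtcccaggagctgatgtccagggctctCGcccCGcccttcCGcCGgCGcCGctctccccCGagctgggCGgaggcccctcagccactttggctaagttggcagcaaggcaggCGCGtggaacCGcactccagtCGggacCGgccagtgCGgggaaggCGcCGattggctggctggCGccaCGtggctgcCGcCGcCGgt
The Hoxd1 stretch holds 24 CG dinucleotides in 250 bases, against 6 at Hoxa2, 7 at Hoxb1 and 8 at Hoxc4.

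The promoter table held 22 of the 38 Hox genes, in 24 entries of 300 bases (250 before to 50 after the start). Hoxc was represented by Hoxc4 alone and Hoxb by Hoxb1, Hoxb4 and Hoxb8, so most entries were of Hoxa and Hoxd. CG dinucleotides, which read the same on both strands, numbered 4 to 45 per entry. The median of all 21263 entries of protein-coding genes was 13, and 13 of the 24 Hox entries lay above it. Hoxa13, a gene of the tail end of the body axis, had 45 and Hoxd13, its paralogue, 37, at percentiles 97.7 and 93.1 of the protein-coding entries. Hoxa9, Hoxd4 and an entry of Hoxd11 had 4 each, at percentile 26.1, while another entry of Hoxd11 had 25, at percentile 76.3. All 24 Hox entries held at least 1 CG, as did all but 4.63% of protein-coding entries.

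Each Hox window held 1 main H3K27me3 peak of more than 100 kb in every cell type, from early neuroepithelium to neurons. These main peaks were the 4 widest H3K27me3 peaks of each of the 5 lists. Their order was the same throughout, with Hoxc the widest, then Hoxa, Hoxb and Hoxd. A broad peak joins enriched stretches, so an unbroken peak does not show an even level of the mark inside it.

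The Hoxc main peak measured 145.1 kb for NEC, 147.5 kb for aRG-P, 177.7 kb for aRG-N, 148.4 kb for bRG and 172.1 kb for N. The values fell into a shorter set (NEC, aRG-P and bRG) and a longer one (aRG-N and N). The Hoxa main peak measured 131.4 kb for NEC, 136.4 kb for aRG-P, 139.0 kb for aRG-N, 134.3 kb for bRG and 140.5 kb for N. The widest exceeded the narrowest 1.07-fold at Hoxa, against 1.22-fold at Hoxc.

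The Hoxb main peak measured 131.2 kb for NEC, 132.0 kb for aRG-P, 135.8 kb for aRG-N, 129.6 kb for bRG and 139.3 kb for N. The Hoxd main peak measured 123.1 kb for NEC, 123.2 kb for aRG-P, 130.5 kb for aRG-N, 123.4 kb for bRG and 131.8 kb for N. At Hoxd the NEC, aRG-P and bRG peaks were within 0.3 kb of each other in width, and the aRG-N and N peaks were about 7 to 9 kb longer. Widths of Hoxa and Hoxb were close to each other in NEC, where they differed by 0.2 kb.

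Peaks of at least 100 kb were rare. In NEC 4 of 9460 H3K27me3 peaks (0.0423%) were that wide, in aRG-P 4 of 5075 (0.0788%), in aRG-N 5 of 6830 (0.0732%), in bRG 4 of 3476 (0.115%) and in N 4 of 5734 (0.0698%). The Hox peaks accounted for all of them but 1 in aRG-N. The widest peak outside the clusters was 80.9 kb for NEC, 74.8 kb for aRG-P, 113.8 kb for aRG-N, 65.3 kb for bRG and 98.2 kb for N. The median peak width of the lists ranged from 1619 bp in aRG-P to 2082 bp in N. The Hox peaks held 1.80% of all H3K27me3-covered bases for NEC, 3.17% for aRG-P, 2.41% for aRG-N, 4.26% for bRG and 2.61% for N.

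**Figure D1:**
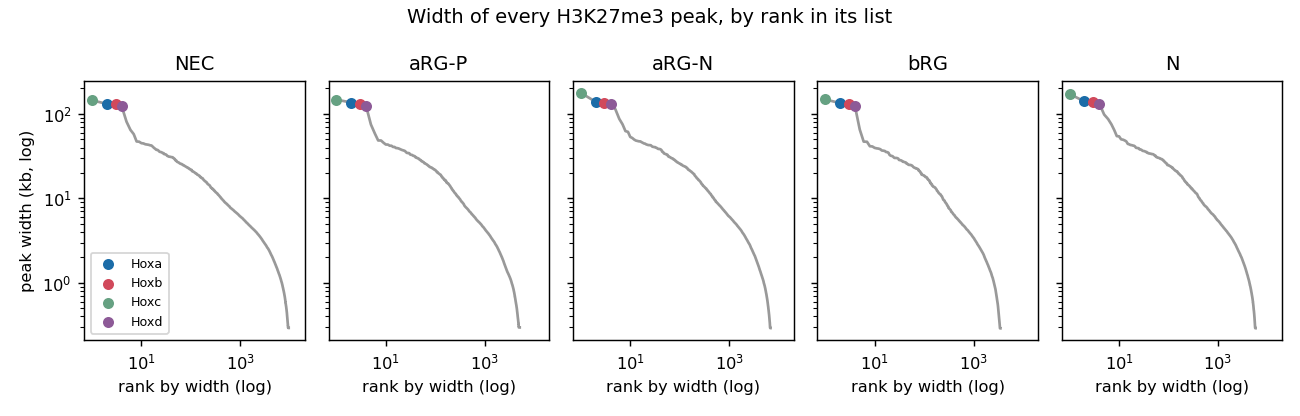
Width in kb (log axis) of every H3K27me3 peak against its rank by width (log axis) in 5 lists, with the main peak of each Hox cluster in colour. The coloured points hold ranks 1 to 4 in each panel, and the next peak of the list is 113.8 kb or less.

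The first of the 3 scores that the authors' lists give per H3K27me3 peak, whose meaning could not be settled, also placed the main Hox peaks high within each list. Their ranks by this score were 4 to 10 for NEC, 27 to 42 for aRG-P, 8 to 16 for aRG-N, 37 to 73 for bRG and 16 to 29 for N. In every list Hoxd had the lowest rank of the main peaks, except that Hoxc ranked below Hoxd in aRG-N. Narrower peaks elsewhere thus scored above the clusters in each list.

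H3K27me3 covered 85.6% of the bases of the 4 windows for NEC, 87.0% for aRG-P, 94.8% for aRG-N, 86.5% for bRG and 93.7% for N. The Hoxd window was the fullest, with 94.7% covered in NEC and 100% in aRG-N. The Hoxc window was the least full, with 76.4% covered in NEC and 93.5% in aRG-N. The uncovered bases lay at the window ends in all lists, apart from the 2 gaps described next.

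Only 2 gaps were found between neighbouring H3K27me3 peaks of a window. In bRG a fragment of 465 bp, from 96108651 to 96109115 on chromosome 11, was separated by 1507 bp from the main Hoxb peak, which began at 96110623. In aRG-N the main Hoxa peak ended at 52232722 and a further peak of 44.7 kb, from 52234471 to 52279132, began after a gap of 1748 bp. Peak numbers on both sides of each gap were consecutive, so no further call was made inside them. Both gaps lay near a window end, no list had a gap further inside a window, and no H3K4me3 peak lay in either gap. For Hoxb this holds for the window only, because the place of Hoxb13 was not determined.

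**Figure D2:**
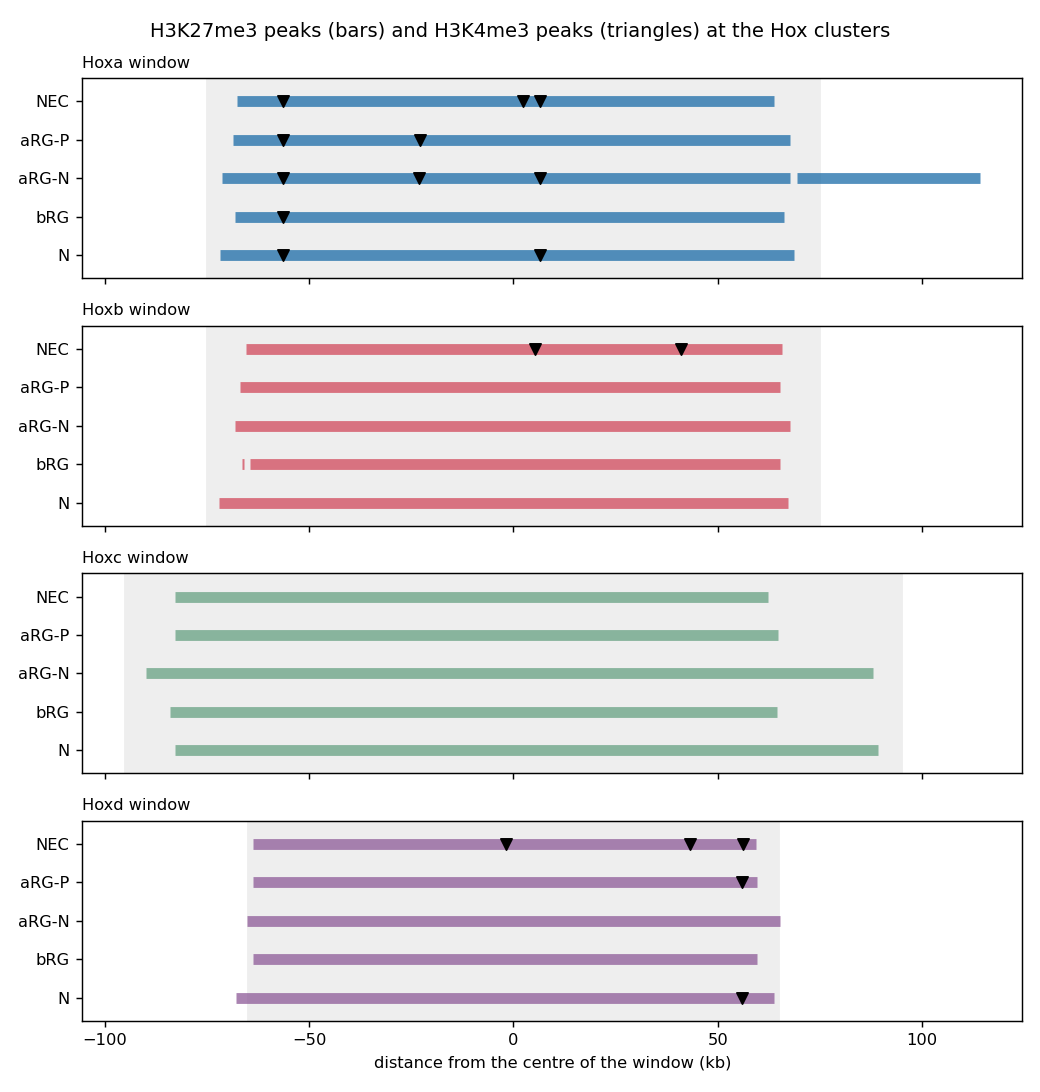
H3K27me3 peaks (bars) and H3K4me3 peaks (black triangles, placed at the peak centre) that touch each window, by cell type, with the distance from the window centre in kb on the x axis and the window in grey. Each window has 1 bar of more than 100 kb per cell type. Triangles are most frequent in NEC and absent from Hoxc.

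The outer edges of the main peaks varied by a few kb between cell types, with 1 larger shift at Hoxc. The low edge of the Hoxa peak lay between 52093227 (N) and 52097325 (NEC), and its high edge between 52228677 (NEC) and 52233746 (N). The low edge of Hoxb lay between 96102988 (N) and 96110623 (bRG), and its high edge between 96240198 (aRG-P) and 96242642 (aRG-N). The low edge of Hoxd lay between 74477043 (N) and 74481402 (aRG-P), and its high edge between 74604406 (NEC) and 74610263 (aRG-N).

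At Hoxd, the edges of NEC, aRG-P and bRG agreed within 96 bp at the low end and 260 bp at the high end. The aRG-N and N edges lay at least 1.57 kb and 4.14 kb further out. The edges of NEC, aRG-P and bRG thus nearly coincided at Hoxd. At the other clusters they spread over 0.44 kb (high edge of Hoxb) to 4.10 kb (high edge of Hoxa). Over all 8 edges of the clusters, the innermost was in NEC at 5, in aRG-P at 2 and in bRG at 1.

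The high edge of Hoxc was at 102877408 for NEC, 102879784 for aRG-P, 102879484 for bRG, 102902908 for aRG-N and 102904272 for N. In aRG-N and N the peak thus reached at least 23.1 kb beyond its end in the other cell types, on the side of Hoxc4. Its low edge was at 102725191 in aRG-N and between 102731065 and 102732260 in the other lists. The lists hold only peaks near transcripts, per the file headers. H3K27me3 calls left out of them, counted from gaps in the peak numbers, numbered 6 in NEC, 5 in aRG-P and 6 in bRG between the main Hoxc peak and the next listed peak. Their positions are unknown, so unlisted calls may lie in the stretch that appears empty in these 3 lists.

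Of the 8 edges, the outermost was in N at 5 and in aRG-N at 3. At 6 of the 8, both aRG-N and N reached beyond all of NEC, aRG-P and bRG. Outside the clusters, 1733 H3K27me3 regions had exactly 1 peak in each list, and at 29.3% of their 3466 edges aRG-N and N both lay outside the other lists. In 59.6% of these edges the outermost list was aRG-N or N. The aRG-N and N peaks of other regions of at least 20 kb were also wider than the NEC peaks, by a median ratio of 1.18 and 1.17, against 1.04 to 1.22 at the 4 clusters in aRG-N and 1.06 to 1.19 in N. The wider Hox peaks of these lists therefore came with wider peaks elsewhere in them. The N list was called on extended reads, per its peak names, and the part of this step in the edges was not tested.

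**Figure D3:**
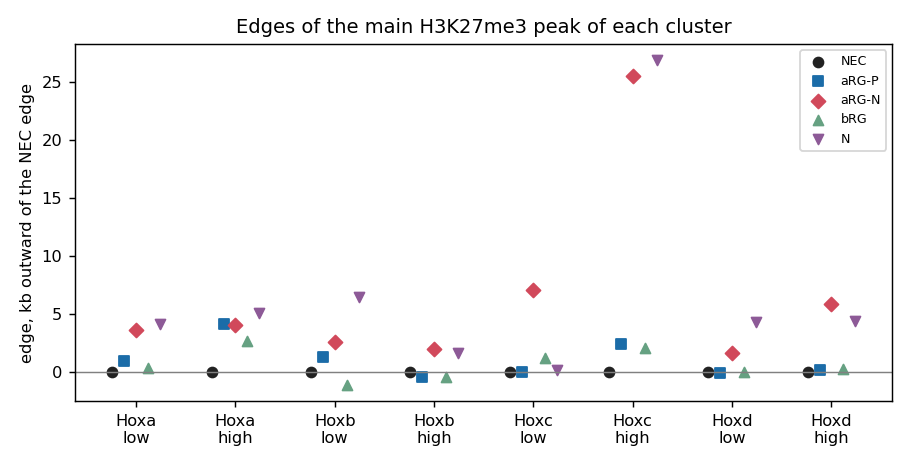
Position of the low and high edge of the main H3K27me3 peak of each cluster in 5 cell types, in kb outward of the NEC edge (0). At the high edge of Hoxc the N point lies at 26.9 kb and the aRG-N point beside it. All other points lie within 8 kb of the NEC edge.

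The stretch covered by the main peak in all 5 lists made up 93.5% of the stretch covered in any list at Hoxa, 92.8% at Hoxb, 81.1% at Hoxc and 92.3% at Hoxd. It ran from 52097325 to 52228677 at Hoxa, 96110623 to 96240198 at Hoxb, 102732260 to 102877408 at Hoxc and 74481402 to 74604406 at Hoxd. For the 75 other regions of at least 20 kb with 1 peak per list the median share was 71.8%. In kb the Hox edges were no steadier: the range of an edge over the 5 lists had a median of 5.46 kb at the 8 Hox edges and 3.13 kb at the 150 edges of those other regions. A shift of the same length takes a smaller share of a wider region.

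Beyond the main peaks, Hoxa and Hoxb each had a wide H3K27me3 neighbour on the side of their high-numbered genes. Below Hoxb, a peak of 43.7 kb for NEC, 48.4 kb for aRG-P, 53.4 kb for aRG-N, 47.0 kb for bRG and 54.2 kb for N was separated from the main peak by 38.9, 37.1, 32.8, 38.7 and 26.9 kb in this order. It ranked between the 6th and the 12th widest of its list. Between this neighbour and the main peak, calls not in the list numbered 1 for NEC, 6 for aRG-P, 6 for aRG-N and 3 for N. In bRG the fragment described above lies between them, and this count was not made. Hoxb13 follows Hoxb9 on this side in the gene order, and whether it lies under this neighbour, the main peak or between them was not determined. This neighbour lies below the window and is not counted among the members.

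Above Hoxa, on the side of Hoxa13 and Evx1, a peak of 20.4 kb in NEC, 25.0 kb in aRG-P, 22.8 kb in bRG and 23.2 kb in N was separated from the main peak by 26.5, 20.2, 22.2 and 19.8 kb. In aRG-N this neighbour was the 44.7 kb peak described above, which reached to 1.75 kb from the main peak. Between the main peak and this neighbour, calls not in the list numbered 1 for NEC, 3 for aRG-P, 3 for bRG and 1 for N, and none for aRG-N. No H3K4me3 peak lay in either neighbour in any list. The Hoxd main peak had no listed H3K27me3 peak within 300 kb on either side in any list, the nearest being 335 kb away in N. Calls not in the list, up to the next listed peak, numbered 1 (NEC) to 5 (aRG-P and N) below it. Above it they numbered 0 (NEC) to 2 (aRG-P, bRG and N), and their positions are unknown.

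H3K4me3 was sparse and weak inside the clusters. The windows held 8 H3K4me3 peaks for NEC, 3 for aRG-P, 3 for aRG-N, 1 for bRG and 3 for N. The NEC list was the longest, and with every list cut to 14801 peaks by −log10 p NEC kept 4, aRG-P 2, aRG-N 3, bRG 1 and N 3. As deposited and joined across the lists, the peaks formed 9 regions: 4 in Hoxa, 2 in Hoxb, 3 in Hoxd and none in Hoxc. A single region, in Hoxa, had a peak in all 5 lists (1 of 9, against 67.9% of the 17229 joined regions of the whole series). NEC had a peak in 8 of the 9 regions and was alone in 5 of them, against 15.8% of regions with a peak in NEC only in the series. In 7 of the 9 NEC had a peak and at least 1 other list had none, against 28.0% in the series. With the lists cut to equal length 5 regions were left, NEC had a peak in 4 of them and was alone in 1, the Hoxb region from 96216007 to 96216276. The share of NEC-only regions in the series was then 5.84%, and 4 of the 5 NEC-only regions had no peak left in any list.

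The Hoxa region with a peak in all 5 lists, on chromosome 6 from 52108181 to 52108959, was the widest and had the highest fold enrichment of the 9. Fold enrichment is the authors' value for the height of a peak over background and is read here within its own list. It was 12.6 for NEC, 6.00 for aRG-P, 9.20 for aRG-N, 5.39 for bRG and 5.03 for N, at percentiles 33.8, 23.6, 36.0, 18.3 and 13.4 of those lists. The summits of the 5 peaks fell within 100 bp of each other, between 52108551 (N) and 52108651 (aRG-N). The region lay 10.9 kb inside the low edge of the stretch marked by H3K27me3 in all lists, on the side of the low-numbered Hoxa genes.

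A Hoxa region from 52171358 to 52171757 had peaks in NEC (fold enrichment 10.8), aRG-N (4.12) and N (4.97), and its summits fell within 89 bp. Another from 52141924 to 52142176 had peaks in aRG-P (3.86) and aRG-N (5.07) and none in NEC, the only region of the 9 without an NEC peak. Both lay in the interior of the cluster, at least 44.6 kb from either common edge.

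In Hoxd a region from 74600770 to 74601356 had peaks in NEC (fold enrichment 7.39), aRG-P (5.57) and N (4.69). It was the widest region and the one with the highest fold enrichment in this cluster, and lay 3.05 kb inside the common high edge, on the side of Hoxd1. Its summits were spread over 336 bp. As at Hoxa, the region found in most lists was therefore the one nearest the edge on the side of the low-numbered genes.

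The regions found in NEC alone were all short and weak. In Hoxb they ran from 96180192 to 96180387 (fold enrichment 4.93) and from 96216007 to 96216276 (7.39). The second of these was the widest of Hoxb and its highest. In Hoxa the NEC region ran from 52167307 to 52167592 (5.42), and in Hoxd from 74543065 to 74543383 (5.42) and from 74588198 to 74588442 (4.93). No region was found in exactly 4 lists.

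None of the 18 H3K4me3 peaks reached the median fold enrichment of its list. The medians inside the windows were 6.40 for NEC, 5.57 for aRG-P, 5.07 for aRG-N and 4.97 for N, against list medians of 18.7, 9.0, 11.8 and 8.26, and the single bRG peak had 5.39 against 8.53. They were also narrow: 196 to 779 bp in NEC against a list median of 1002 bp, 214 to 360 bp in aRG-P against 631 bp, and 240 to 551 bp in aRG-N against 927 bp. In bRG the peak was 319 bp wide against 756 bp, and in N they were 215 to 386 bp against 719 bp. H3K4me3 peaks overlapping H3K27me3 anywhere had median fold enrichments of 12.8 for NEC, 6.43 for aRG-P, 6.98 for aRG-N, 5.70 for bRG and 6.34 for N, so the medians inside the clusters were also below these.

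**Figure D4:**
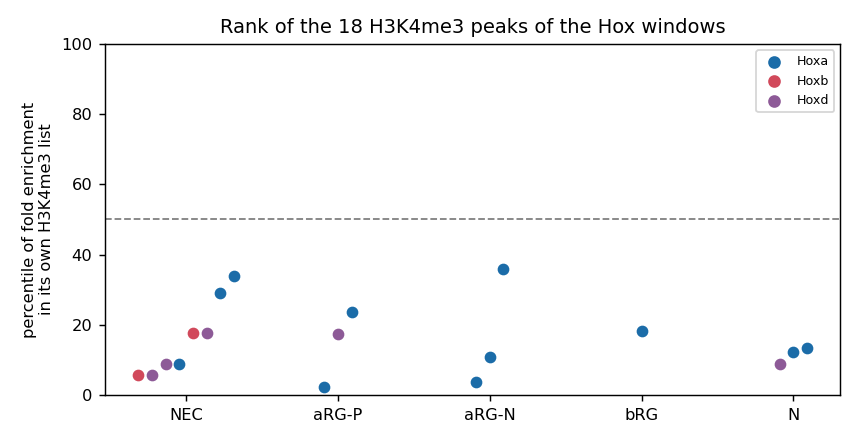
Percentile of the fold enrichment of each of the 18 H3K4me3 peaks in its own list, by cell type and coloured by cluster, with the list median (50) as a dashed line. All points lie below the line, the highest at 36.0 in aRG-N.

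All 18 H3K4me3 peaks overlapped H3K27me3 of the same cell type (8 of 8 in NEC, 1 of 1 in bRG, and 3 of 3 in each other list). The same was true of 25.9% of all H3K4me3 peaks for NEC, 8.90% for aRG-P, 14.4% for aRG-N, 8.41% for bRG and 12.7% for N. With 85.6 to 94.8% of the windows under H3K27me3, an overlap of nearly all peaks follows from the coverage. Overlapping peaks of separate lists do not show both marks in the same cell or on the same chromosome copy.

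Counted by H3K27me3 peak, 3 of the 4 Hox peaks of NEC held H3K4me3 (40.5% of all H3K27me3 peaks of that list). So did 2 of 4 in aRG-P (23.4%), 1 of 5 in aRG-N (27.8%), 1 of 5 in bRG (32.0%) and 2 of 4 in N (30.5%). Among other H3K27me3 peaks of at least 20 kb the share with H3K4me3 was 75.2% for NEC, 21.1% for aRG-P, 38.4% for aRG-N, 21.0% for bRG and 17.9% for N. By the counts above, the share of Hox peaks was above that of the other wide peaks in aRG-P and N, below it in aRG-N and close to it in NEC and bRG, over 4 or 5 Hox peaks a list. The Hox peaks are wider still than these, and the 5 peaks of aRG-N and bRG include the neighbour of Hoxa and the Hoxb fragment. For its length, Hox H3K27me3 carried few H3K4me3 peaks. Per Mb of H3K27me3 the Hox peaks held 15.1 H3K4me3 peaks for NEC, 5.56 for aRG-P, 4.78 for aRG-N, 1.86 for bRG and 5.14 for N. All other H3K27me3 peaks held 160.1, 86.1, 83.8, 105.2 and 92.0 per Mb in this order. Wide peaks elsewhere were also poor in H3K4me3: the other H3K27me3 peaks of at least 20 kb, between 81 for bRG and 177 for aRG-N, held 55.2 per Mb for NEC, 10.7 for aRG-P, 17.3 for aRG-N, 9.64 for bRG and 7.82 for N. The Hox value was the lower one in each list. Outside NEC it rests on 1 to 3 peaks per list, and the difference from the other wide peaks was not tested. H3K4me3 covered 0.568% of Hox H3K27me3 bases in NEC and 0.0595 to 0.166% in the E14.5 lists, against 6.66% and 0.381 to 1.07% in the other wide peaks.

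**Figure D5:**
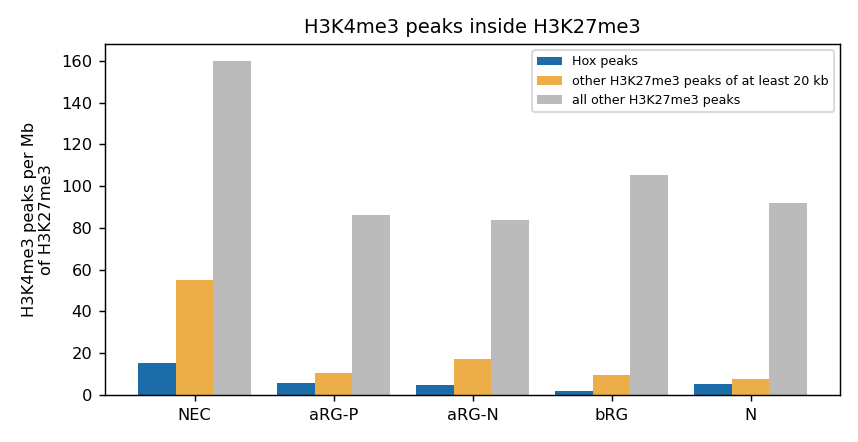
H3K4me3 peaks per Mb of H3K27me3 in each cell type for the Hox peaks, other H3K27me3 peaks of at least 20 kb and all other H3K27me3 peaks. Hox bars are the lowest of the 3 in each cell type, from 1.86 in bRG to 15.1 in NEC.

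The Hoxd main peak was flanked in every list by an H3K4me3 peak 59.6 to 64.0 kb below its low edge and another 53.3 to 59.1 kb above its high edge. The lower flanking peak had fold enrichments of 32.3 for NEC, 6.6 for aRG-P, 21.2 for aRG-N, 14.4 for bRG and 13.5 for N. The upper one, on the side of Mtx2, had 26.1, 13.3, 20.3, 11.4 and 11.6. In each list both Hoxd flanking peaks exceeded every H3K4me3 peak inside the 4 windows. No other cluster showed this in every list. The nearest H3K4me3 peak below Hoxa had fold enrichments of 11.8 for NEC, 4.71 for aRG-P, 7.40 for aRG-N and 4.93 for bRG. Each was below the highest peak inside Hoxa in that list. In N it was 5.24, above the highest inside peak (5.03). The nearest peak above Hoxa exceeded every peak inside the 4 windows in all lists. At Hoxb both flanking peaks did so in all lists but NEC, where they had 5.91 and 7.88. At Hoxc both did so in NEC and N only. On both sides of Hoxa, Hoxb and Hoxc the nearest listed H3K4me3 peak was further away, at least 83.5 kb in each case.

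Unlisted H3K4me3 calls limit the counts of 0 unevenly. Between the listed peaks that flank the Hoxd window, no call number was missing in any list, so the Hoxd counts hold every call as far as the peak numbers show. Missing numbers amounted to 2 over the 5 lists at Hoxa, both in NEC, and 2 at Hoxb, 1 each in NEC and N. At Hoxc between 1 (N) and 5 (NEC) calls per list were missing between flanking peaks, so the absence of H3K4me3 from Hoxc holds for the lists used here and not for every call.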

How the data were processed

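Per the labels' protocols, chromatin immunoprecipitation was done with a low-cell kit and sequencing libraries with MicroPlex. Bowtie 1.0.0, MACS2, bedtools and build mm9 are named in the submitters' processing notes. The authors deposited 10 peak lists, each called on combined samples per the peak names, which gave per H3K4me3 peak a fold enrichment (a ratio), −log10 p and −log10 q. The deposited H3K27me3 columns are called a score, as their meaning could not be settled. Per the file headers, lists hold peaks near transcripts. Per the peak names, aRG-P H3K27me3 excluded a set. The 2 Input samples were not used here.

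Groups are the labelled combinations of cell type and mark. Positions were made 1-based. Peaks touching a window by 1 bp were members, and the main peak of a cluster is its widest. Gaps of at least 500 bp were counted. Joined regions share at least 1 bp between lists. Named regions were the widest peak and longest gap per cluster and list, the H3K4me3 region of highest fold enrichment and the widest per cluster, regions in exactly 1 or 4 lists, and H3K4me3 peaks lacking H3K27me3. Other H3K4me3 regions and neighbouring peaks were named after their values were seen. No statistical test was made between cell types or lists. Members, lists and settings were chosen with earlier results of these data known. The code for overlaps and joined regions was checked on simulated intervals with known answers. Tools were Python 3.11.15, numpy 2.4.6, pandas 2.3.3 and matplotlib 3.10.9.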

Additional observations from a re-analysis of the deposited data

How the results depend on the processing

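No paired analysis was possible because each list was called on combined samples, and no replicate could be left out for the same reason. A value is said to have moved when it changed by over 1.5 times. Joining H3K27me3 peaks across 3000 bp, cutting lists to equal length (3476 H3K27me3 and 14801 H3K4me3 peaks), and requiring at least 50% of an H3K4me3 peak under H3K27me3 moved no H3K27me3 value or overlap share. Extending the windows by 50000 bp per side lowered the covered share to 56.0% in NEC, 57.6% in aRG-P, 57.1% in bRG and 62.3% in N. In aRG-N it fell to 65.2%, a change of less than 1.5 times. With gaps of at least 2000 bp counted, the aRG-N and bRG gaps both gave 0. Of the aRG-N H3K27me3 peaks 3 lay wholly inside a window, as did 3 of 4 in N and all in the other lists. A −log10 q of at least 10 left 4 H3K4me3 peaks for NEC, 0 for aRG-P, 1 for aRG-N, 0 for bRG and 0 for N, and lists of equal length left 4 in NEC. With equal lengths, a choice for regions made after seeing the data, the joined H3K4me3 regions fell from 9 to 5, those with NEC from 8 to 4, those with NEC but not all 5 lists from 7 to 3, and those in NEC only from 5 to 1. The single H3K4me3 region found in all 5 lists remained 1 with a −log10 q of at least 5, with equal lengths and with joining across 1000 bp. Taking only other H3K27me3 peaks of at least 20 kb, a choice made after seeing the data, H3K4me3 per Mb outside Hox was 55.2 for NEC, 10.7 for aRG-P, 17.3 for aRG-N, 9.64 for bRG and 7.82 for N.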
